A study of Homo sapiens with 10 samples.

Results

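The genes described here are 8 inhibitors that act on receptor tyrosine kinase signalling to ERK: the Sprouty genes SPRY1, SPRY2 and SPRY4, the SPRED genes SPRED1, SPRED2 and SPRED3, IL17RD (also called SEF) and ERRFI1 (also called MIG6). They were chosen by name, as the rows of the raw gene count table whose Ensembl identifiers map to these symbols. The rule uses no measured value, but the genes were picked with earlier results of these data known. All 8 were found among 55841 rows, and all 8 were among the 23552 genes that passed the filter on low counts and were tested. Bulk RNA was sequenced from human embryonic stem cells of the line labelled HES9, grown in mTESR1 medium on matrigel, in 10 libraries. The general population was not sorted, and the HHH population was sorted for the highest levels of GCTM-2, CD9 and EPCAM at the cell surface. Batch 1 had 2 libraries of each population (general replicates 1 and 2, HHH replicates 2 and 3), and batch 2 had 3. The series' design text speaks of protein kinase C inhibitors, but no library carries such a treatment in its label, and none was assumed. The libraries come from 1 cell line, HHH cells passed through a sorter and general cells did not, and the effect of sorting itself cannot be told apart from that of the cells chosen. Nothing in the labels says that replicates came from separate cultures, so the p-values measure the spread between these libraries, which may be technical.

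Growth factors such as FGF2 bind receptor tyrosine kinases, and adaptors then pass the signal through RAS, RAF and MEK to the kinase ERK. In human embryonic stem cells, FGF signalling is part of what keeps the cells undifferentiated, and FGF2 is an ingredient of most of their culture media. ERK activity switches on genes whose products damp the same pathway, and the Sprouty and SPRED families are textbook members of this negative feedback. Sprouty proteins act between the receptor and RAF. SPRED proteins bring the RAS inactivator neurofibromin (NF1) to the membrane, IL17RD is a membrane protein that restrains FGF signalling, and ERRFI1 binds the kinase domain of the EGF receptor family.

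Sequence upstream of transcription start is shown for 4 of the genes, because ERK is known to reach promoters through transcription factors and because these 4 span the range of the responses: SPRY4, SPRY2 and ERRFI1 were higher in HHH cells, and SPRED3 was not. Each run is the 250 bases before a start site, 5′ to 3′, from RefSeq on GRCh38.p14 (the count table was made on GRCh37, and no coordinate was taken across).
SPRY4 (chr5:142324248-142324497, minus strand): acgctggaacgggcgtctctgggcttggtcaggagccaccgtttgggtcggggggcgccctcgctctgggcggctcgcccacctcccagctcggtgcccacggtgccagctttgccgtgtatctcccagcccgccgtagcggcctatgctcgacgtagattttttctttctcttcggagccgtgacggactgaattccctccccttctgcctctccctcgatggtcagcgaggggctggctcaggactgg
SPRY2 (chr13:80341127-80341376, minus strand): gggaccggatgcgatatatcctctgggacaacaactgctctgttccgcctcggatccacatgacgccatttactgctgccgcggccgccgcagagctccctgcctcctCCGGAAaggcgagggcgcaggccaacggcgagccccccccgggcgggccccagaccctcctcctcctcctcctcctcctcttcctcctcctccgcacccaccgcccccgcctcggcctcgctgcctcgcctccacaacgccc
ERRFI1 (chr1:8026310-8026559, minus strand): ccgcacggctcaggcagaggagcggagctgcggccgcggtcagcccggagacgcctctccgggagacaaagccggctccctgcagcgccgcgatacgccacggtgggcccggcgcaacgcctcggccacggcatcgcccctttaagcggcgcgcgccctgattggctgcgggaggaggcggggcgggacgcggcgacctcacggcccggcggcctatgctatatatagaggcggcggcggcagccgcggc
SPRED3 (chr19:38389541-38389790, plus strand): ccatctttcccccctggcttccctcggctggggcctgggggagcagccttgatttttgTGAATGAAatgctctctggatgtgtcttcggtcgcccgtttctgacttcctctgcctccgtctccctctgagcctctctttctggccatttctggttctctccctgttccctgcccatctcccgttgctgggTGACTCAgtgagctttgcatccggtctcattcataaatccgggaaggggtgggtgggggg
Capitals mark matches, on either strand, to 3 motifs: TGAATGAA or TCAATGAA, the octamer bound by CIC, a repressor that ERK inactivates; CCGGAA, a core bound by ETS factors such as ETV4 and ETV5; and TGACTCA, an AP-1 site. No match of one overlapped another in these windows. In SPRY2 an ETS core began 142 bases before the start shown. In SPRED3 a CIC octamer began 192 bases before the start shown and an AP-1 site 60 bases before it. Both genes have other listed starts, not shown: windows 2 and 3 of SPRY2 and window 2 of SPRED3 held no match. SPRY4 and ERRFI1 held none of the 3 in this window. The 8 genes had 14 such windows in the table, of which 1 held the CIC octamer, 2 the ETS core (the other in SPRY1, 67 bases before its second listed start) and 1 the AP-1 site. Over all 35116 windows the shares were 2%, 14.5% and 4.2%. A match is a run of letters and not evidence of binding, and these data hold no measurement of binding.

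The first question was which of the 8 genes differed between HHH and general cells. Over all libraries, 5 of the 8 were higher in HHH cells: SPRY4, IL17RD, ERRFI1, SPRY2 and SPRED1. The test was edgeR's quasi-likelihood test with batch in the model, and a gene was called where its Benjamini-Hochberg adjusted p over all genes was under 0.05. None of the 8 was called lower, and none was lower at an unadjusted p under 0.05 or by DESeq2 or limma with voom. Of all genes tested, 1.94% were called higher and 3.89% lower. The 8 genes had a median log2 fold change of 0.39, where all genes tested had 0.02, and 7 of the 8 values were above 0. SPRY4 was the one member both called and over 1.5-fold, a mark that 0.637% of all genes passed. The study named SPRY2 from these same samples, so its count here is not independent of that. The study also asked for more than 1.5-fold, which the 1.36-fold of SPRY2 here does not reach. In bulk RNA, more cells that express a gene and more of its RNA per cell cannot be told apart.

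**Figure D1:**
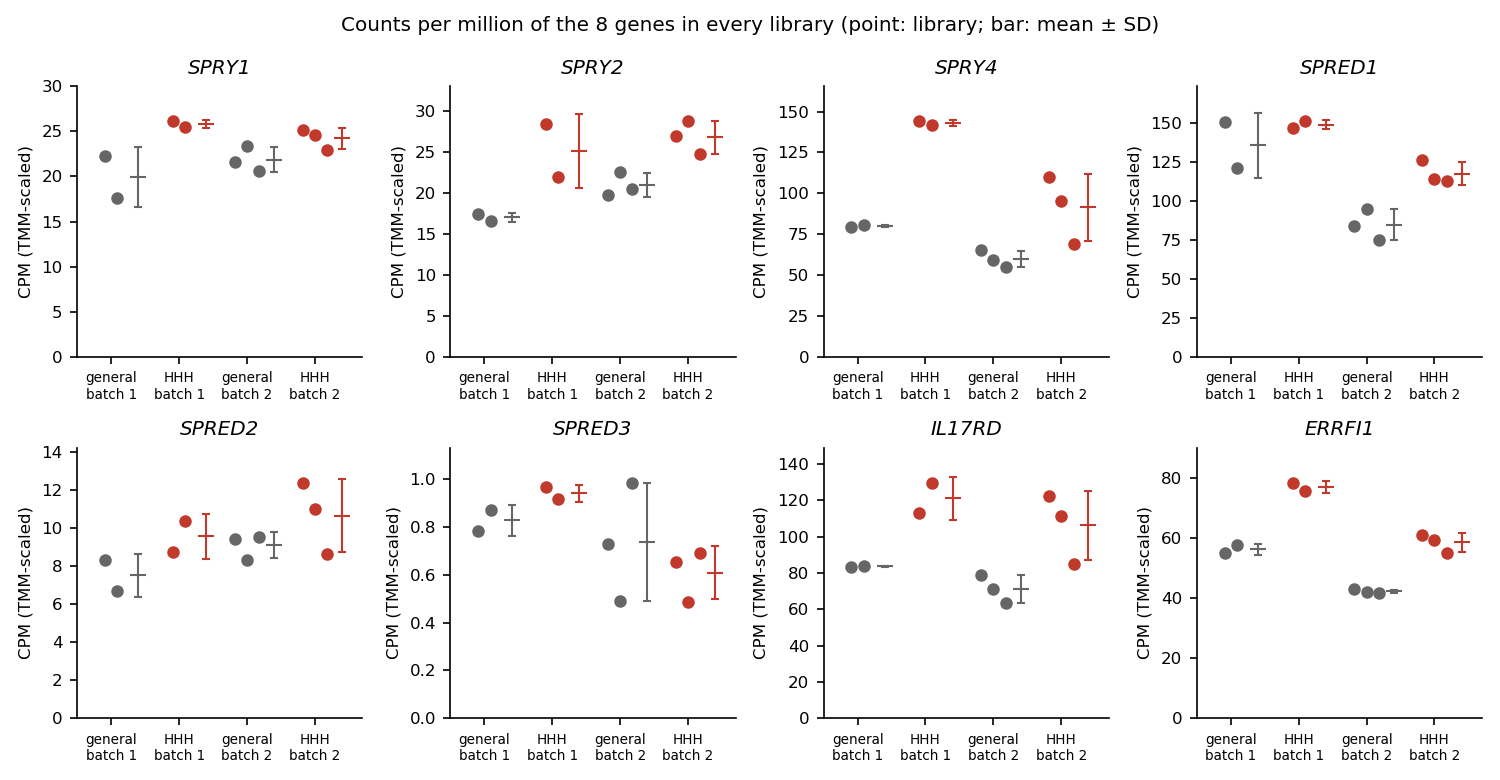
CPM (TMM-scaled, linear axes from 0) of the 8 genes in each of the 10 libraries, by population and batch. Points are libraries and the bars beside them the mean ± SD. For SPRY4, SPRY2, IL17RD and ERRFI1 every HHH library sits above every general library of its batch.

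Among the Sprouty genes, SPRY4 changed most. In batch 1, the general libraries held 79.5 and 80.4 CPM (counts per 1000000 after TMM scaling of the library sizes) of SPRY4 and the HHH libraries 144 and 142 CPM. In batch 2, the general libraries held 65.1, 59.1 and 55.2 CPM and the HHH libraries 110.0, 95.3 and 69.2 CPM. All HHH libraries were above the general libraries of their batch, but HHH batch 2 replicate 3 lay only just above them. The log2 fold change was 0.70 ± 0.11 (SE; 95% interval 0.47 to 0.93; adjusted p = 0.00107), or 1.63-fold.

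SPRY2 encodes a Sprouty protein that binds the ubiquitin ligase CBL. Its level was 17.5 and 16.7 CPM in general batch 1, 28.4 and 22.0 CPM in HHH batch 1, 19.8, 22.6 and 20.5 CPM in general batch 2, and 27.0, 28.8 and 24.8 CPM in HHH batch 2. The groups did not overlap in either batch, and the log2 fold change was 0.44 ± 0.09 (SE; adjusted p = 0.00746). SPRY1, a regulator of signalling in kidney development, held 22.3 and 17.6 CPM in general batch 1 against 26.1 and 25.5 CPM in HHH batch 1. In batch 2 it held 21.6, 23.3 and 20.6 CPM in general and 25.2, 24.6 and 22.9 CPM in HHH libraries, and here 1 general library lay above the lowest HHH library. Its log2 fold change of 0.24 had a 95% interval of 0.06 to 0.42 but did not pass after adjustment over all genes (adjusted p = 0.115). All 5 HHH libraries were above the general mean of their batch.

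The 3 SPRED genes differed in level and in response. SPRED1, the gene mutated in Legius syndrome, was at 151 and 121 CPM in general batch 1 and 147 and 151 CPM in HHH batch 1, so the groups overlapped. In batch 2 it was at 84.1, 95.1 and 75.1 CPM in general and 126, 114 and 113 CPM in HHH libraries, with no overlap. The call over all libraries was borderline (log2 fold change 0.34 ± 0.09 SE, adjusted p = 0.0497): it was lost when any 1 of 8 libraries was left out (adjusted p up to 0.141) and kept only without general batch 1 replicate 1 or HHH batch 1 replicate 3.

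SPRED2 was lower in level, at 8.32 and 6.72 CPM in general batch 1, 8.75 and 10.4 CPM in HHH batch 1, 9.46, 8.34 and 9.55 CPM in general batch 2, and 12.4, 11 and 8.63 CPM in HHH batch 2. Of its 5 HHH libraries, 4 were above the general mean of their batch, and replicate 3 of batch 2 was at 94.6% of it. The log2 fold change was 0.27 (95% interval 0.04 to 0.51, adjusted p = 0.174), which did not pass. SPRED3, known mainly from the brain, had 28 to 59 reads per general library and 28 to 45 per HHH library, or 0.49 to 0.98 and 0.48 to 0.96 CPM, where 3 reads amount to 0.046 to 0.0687 CPM. Its log2 fold change was -0.08 with an interval of -0.53 to 0.36 (adjusted p = 0.861), so at this depth neither a rise like that of SPRED1 nor a fall of like size was detectable.

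IL17RD and ERRFI1 act at the receptors. IL17RD was at 83.2 and 83.8 CPM in general batch 1 and 113 and 129.5 CPM in HHH batch 1. In batch 2 it was at 78.8, 71.1 and 63.4 CPM in general and 122, 111 and 85.0 CPM in HHH libraries. The populations did not overlap in either batch, and the log2 fold change was 0.56 ± 0.10 (SE; adjusted p = 0.00284).

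ERRFI1 had the smallest adjusted p of the 8 and the smallest SE of the fitted log2 fold change. It was at 55.1 and 57.7 CPM in general batch 1 and 78.5 and 75.8 CPM in HHH batch 1, and at 43.0, 42.2 and 41.8 CPM in general batch 2 and 61.2, 59.5 and 55.3 CPM in HHH batch 2. The gap between populations in each batch was larger than the spread of either, and the log2 fold change was 0.46 ± 0.06 (SE; adjusted p = 3.36e-04). Its HHH libraries were 131% to 145% of the general mean of their batch. The same range was 116% to 184% for SPRY4, which changed more but less evenly.

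The second question was whether the difference was seen in each batch on its own. In batch 1, 3 of the 8 genes were called higher (SPRY4, ERRFI1 and SPRY2), against 1.12% of all genes, and all 8 values were above 0. In batch 2, 5 were called higher (ERRFI1, IL17RD, SPRY4, SPRED1 and SPRY2), against 3.83% of all genes, and 7 values were above 0. SPRY4 had log2 fold changes of 0.84 in batch 1 and 0.61 in batch 2, IL17RD 0.54 and 0.58, ERRFI1 0.45 and 0.47, and SPRY2 0.56 and 0.36. These counts lean on single libraries, and so do the counts over all genes. In batch 1, leaving 1 library out leaves a lone library in its group, which is assumed to vary like the other groups. Without general replicate 1 the log2 fold changes were 0.83 for SPRY4, 0.42 for ERRFI1 and 0.60 for SPRY2. Without HHH replicate 2 they were 0.83, 0.43 and 0.37. In batch 2, 1 member was called without general replicate 3, where all genes called higher fell from 901 to 153. Without general replicate 1 or HHH replicate 1, 3 members were called, and 324 or 500 of all genes were called higher. With the batch 1 libraries fitted alone, SPRY4 was the 1 member called, and all genes called higher fell from 264 to 69.

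**Figure D2:**
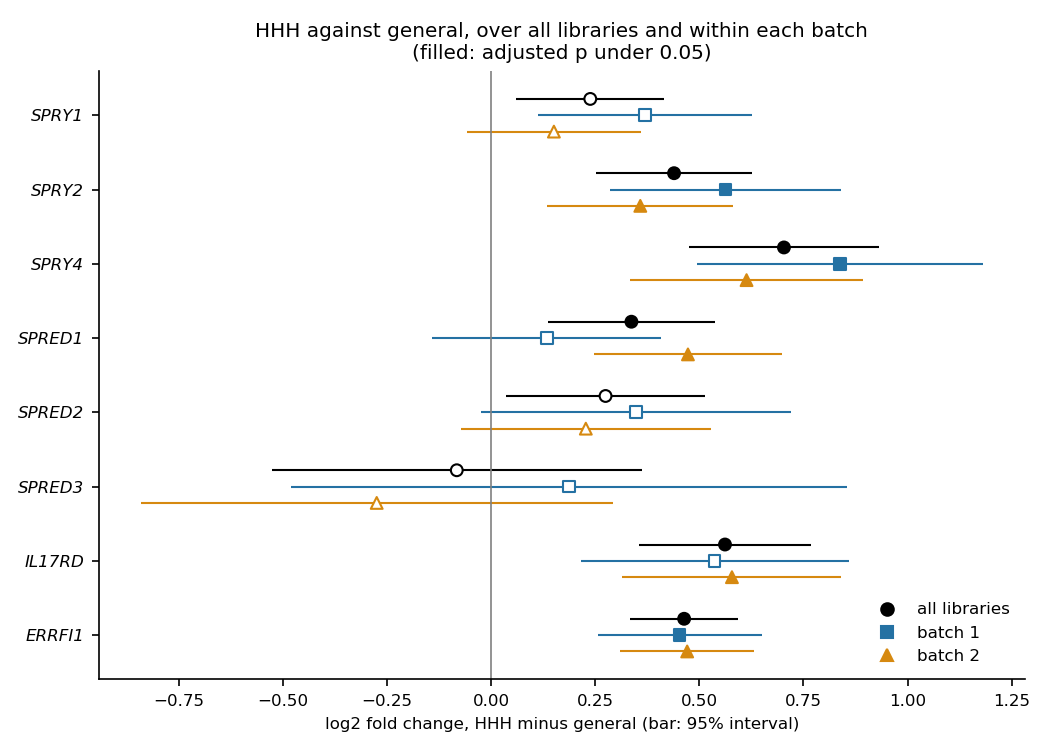
Log2 fold change of HHH over general cells for the 8 genes (x axis), over all libraries (circles), in batch 1 (squares) and in batch 2 (triangles), with 95% intervals as bars. Filled symbols have an adjusted p under 0.05. The values lie right of 0 for every gene but SPRED3, whose values fall on both sides.

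SPRED1 had the widest gap between batches among the called genes, with log2 fold changes of 0.13 (95% interval -0.14 to 0.41) in batch 1 and 0.47 (0.25 to 0.70) in batch 2. The difference itself, 0.34, did not pass (adjusted p = 0.284). No member's difference between batches did (edgeR, and 0 of 8 at an unadjusted p under 0.05), while 0.777% of all genes had one that did. For SPRY4 the difference of batch 2 from batch 1 was -0.22, with an interval of -0.67 to 0.22, and for ERRFI1 it was 0.02, with an interval of -0.24 to 0.27. The test leaves room for differences of that size.

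HHH libraries stood clear of the general libraries in both batches for 4 of the 8 genes (SPRY2, SPRY4, IL17RD and ERRFI1). The same was true of 3.93% of all genes. With library size as the only scaling the 4 became 2. Without HHH batch 2 replicate 3 they became 6, but with 1 library fewer any gene stands clear more easily. The 3.93% holds for the reported scaling with all libraries, so neither count can be set against it. HHH batch 2 replicate 3 was the lowest of the 3 HHH libraries of batch 2 for 7 of the 8 genes, SPRED3 being the exception. Its summed level of neural markers was 48.4 CPM, against 35.5 and 36.7 CPM in the other HHH libraries of batch 2. The general libraries of batch 2 held 112 to 153 CPM. In batch 1 the sums were 44.4 and 37.5 CPM in HHH and 110.8 and 95.4 CPM in general libraries. A link between these sums and the 8 genes was not tested. Without HHH batch 2 replicate 3, edgeR called 4 members over all libraries, SPRED1 being lost at an adjusted p of 0.0731. All genes called then numbered 1183, against 1373 with it.

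**Figure D3:**
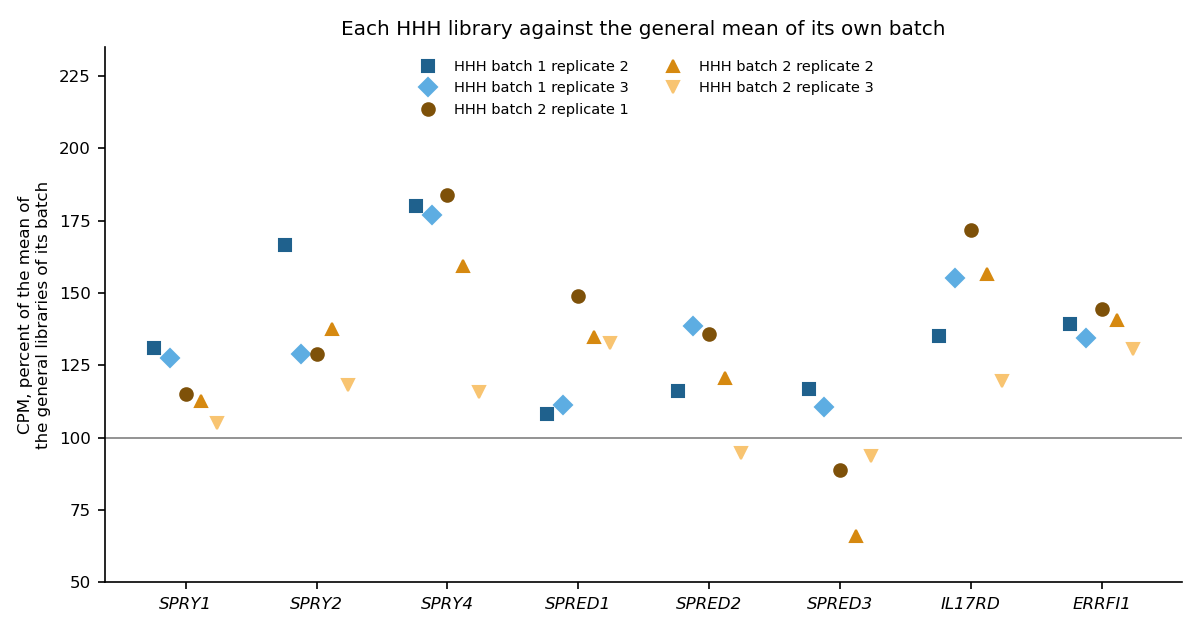
Level of each gene in each of the 5 HHH libraries (y axis, percent of the mean CPM of the general libraries of its own batch, axis from 50). The line marks 100%, and HHH batch 2 replicate 3 (pale triangles, point down) is near it for SPRY1 (105%) and below it for SPRED2 (94.6%).

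The scale mattered in batch 1. The deposited table is described as log2 RPKM, and its TMM factors are not given in the sources used here. Its median over all genes was 0.41 lower in HHH than in general libraries of batch 1 and 0.05 higher in batch 2. Total counts in batch 1 were 78503395 and 67116674 in general and 55796357 and 47242595 in HHH libraries. In batch 2 they were 50728201 to 53136526 in general and 53327376 to 54770111 in HHH libraries. The shift of all genes had the sign of the difference in depth in both batches. On those values 4 members were below 0 in batch 1 (SPRED1, SPRED3, SPRED2 and SPRY1) and SPRED3 alone in batch 2. Relative to that shift, all 8 were above 0 in batch 1, from 0.14 for SPRED1 to 0.83 for SPRY4. With limma on the deposited values 1 member passed (SPRY4, adjusted p = 0.0396). After each library was centred on its median, 4 passed (SPRY4, SPRY2, IL17RD and ERRFI1). The changes given here come from TMM-scaled counts and are relative to the bulk of all genes.

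Levels of different genes can be compared only per length, for which the deposited log2 RPKM values served. Over the 10 libraries the order was SPRY4 (3.88 ± 0.34, SD), SPRED1 (3.83 ± 0.27), ERRFI1 (3.76 ± 0.22), IL17RD (3.26 ± 0.30), SPRY2 (2.73 ± 0.21), SPRY1 (2.51 ± 0.14), SPRED2 (0.80 ± 0.18) and SPRED3 (-1.76 ± 0.28). Neighbours among the first 6 overlapped in their libraries, while SPRED2 lay below every library of SPRY1 and SPRED3 below every library of SPRED2. In the general libraries SPRED1 came first and SPRY4 second, and in the HHH libraries SPRY4 came first. The order of the other 6 was the same in both populations. The first place depended on the gene length used: with CPM divided by GENCODE exon length, SPRED1 came first (15.2 CPM per kb) and SPRY4 second (13.7), the other 6 kept their places, and SPRED3 was at 0.129 CPM per kb where its deposited values had a geometric mean of 0.295 RPKM.

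The pathway around these inhibitors was then read from 5 lists, which were drawn up with earlier results of these data known and share some genes. The counts stand beside those over all genes tested, of which edgeR called 1.94% higher and 3.89% lower. Of 24 receptors, ligands and adaptors, none was called higher by edgeR, DESeq2 or limma with voom (1 was higher at an unadjusted p under 0.05), 5 were lower and 19 were not called, with a median log2 fold change of -0.05. FGFR3 fell from 29.9 to 59.3 CPM in general libraries to 9.69 to 17.3 CPM in HHH libraries (log2 fold change -1.54, adjusted p = 7.69e-06), and the insulin receptor INSR fell by 0.69 on the log2 scale (adjusted p = 7.67e-04). FGFR2 fell by 0.48 (adjusted p = 0.00222), and FGF2, the ligand itself, fell by 0.37 (adjusted p = 0.00527). FGFR1, a main FGF receptor of these cells, fell by 0.47 over all libraries (adjusted p = 0.0328). Its log2 fold change was -0.06 in batch 1 (adjusted p = 0.862) and -0.75 in batch 2 (adjusted p = 3.83e-04). The difference between batches did not pass (edgeR, adjusted p = 0.0649). The FGF receptor adaptor FRS2 (log2 fold change -0.13, adjusted p = 0.293) and GRB2, which recruits SOS (-0.03, adjusted p = 0.851), did not pass.

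None of the 19 genes of the RAS, RAF, MEK and ERK core was called by edgeR, DESeq2 or limma with voom. None had an unadjusted edgeR p under 0.05, and their log2 fold changes lay between -0.20 and 0.16. In a list of this size, 0 calls is near the share over all genes and does not set the core apart. The smallest adjusted p values were those of RRAS (0.362), MAP2K1 (0.364), NRAS (0.378) and HRAS (0.380). MAPK3, which encodes an ERK kinase, was at a mean of 23.2 CPM in general and 21.7 CPM in HHH libraries (log2 fold change -0.11, 95% interval -0.27 to 0.06). This interval does not reach the 0.70 of SPRY4 or the 0.46 of ERRFI1.

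Of 25 genes whose products bind the 8 inhibitors or are bound by them, FGFR1 was the 1 called, and lower. A count of 1 in 25 is near the share over all genes. None was called higher by edgeR (2 at an unadjusted p under 0.05), and CAV1 was the 1 called higher by DESeq2 and by limma with voom. CAV1, a caveolar protein that binds Sprouty proteins, had a log2 fold change of 0.40 (adjusted p = 0.0524). The receptor KIT had -0.32 (adjusted p = 0.0614), and the ubiquitin ligase CBLB -0.22 (adjusted p = 0.142). CBL, the ligase that SPRY2 binds, had -0.12 (adjusted p = 0.550), and NF1, the partner of the SPRED proteins, 0.00 (95% interval -0.17 to 0.18, adjusted p = 0.983).

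Of 22 genes listed as other inhibitors of the pathway, 3 were higher, 2 lower and 17 not called. DUSP6, a phosphatase specific for ERK, was at a mean of 147 CPM in general and 272 CPM in HHH libraries (log2 fold change 0.94 ± 0.08 SE, adjusted p = 8.14e-06), a larger value than that of any of the 8. The nuclear ERK phosphatase DUSP5 rose by 0.68 (adjusted p = 0.00527) and SOCS3, an inhibitor of cytokine signalling, by 0.29 (adjusted p = 0.0481). FLRT3, a membrane protein that binds FGF receptors and is known to promote their signalling rather than to inhibit it, fell by 1.22 on the log2 scale (adjusted p = 8.52e-04) and SHISA2, of a family that holds FGF and WNT receptors inside the cell, fell by 0.43 (adjusted p = 0.0472). The study named DUSP5 and DUSP6 from these samples as well.

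Of 17 genes that ERK is known to induce, 7 were higher, 3 lower and 7 not called, and without SPRY2 and SPRY4 it was 5 higher of 15. The ETS factors ETV4 (log2 fold change 0.58, adjusted p = 1.74e-04) and ETV5 (0.72, adjusted p = 1.87e-04) rose, as did the early response gene IER3 (0.74, adjusted p = 4.32e-05). The ephrin receptor EPHA4 fell by 1.54 (adjusted p = 6.78e-06), the immediate early factor EGR1 fell by 1.19 (adjusted p = 2.88e-04) and FOSL1, an AP-1 subunit, fell by 0.68 (adjusted p = 0.0419). FOSL1 was at a mean of about 1 CPM in both populations (1.17 and 0.724).

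**Figure D4:**
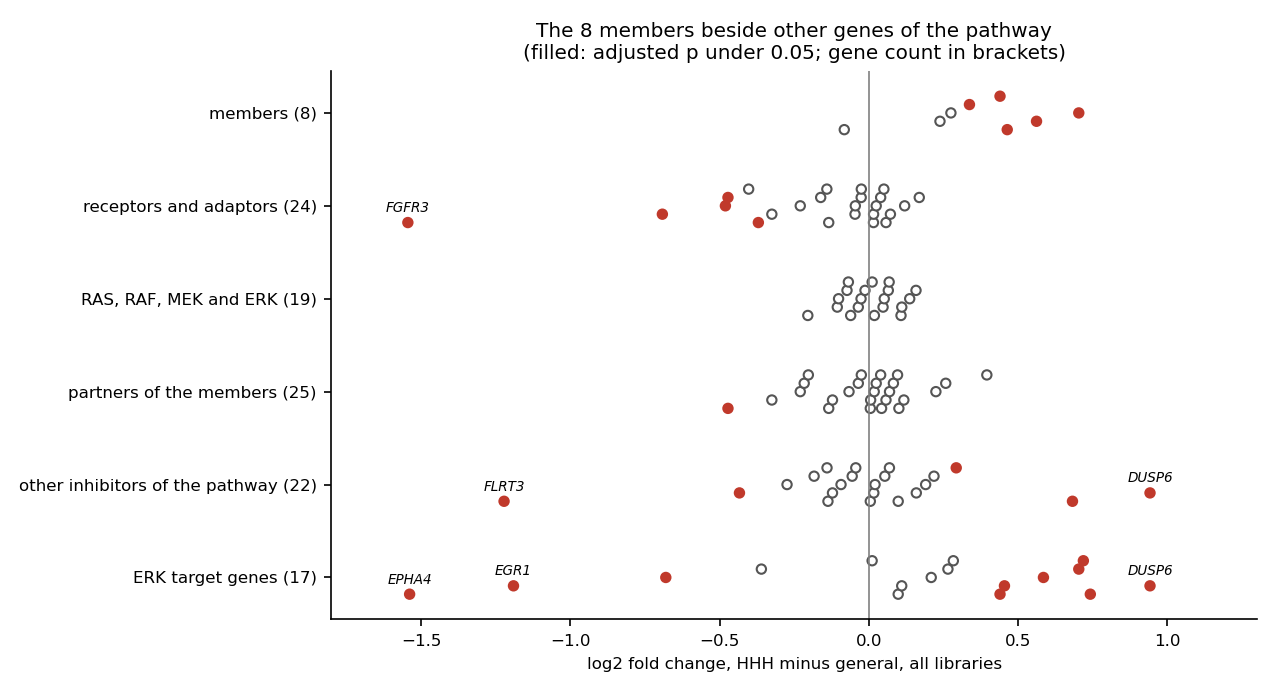
Log2 fold change of HHH over general cells (x axis, all libraries) for the 8 inhibitors and for the genes of 5 lists, 1 point a gene. Filled points have an adjusted p under 0.05. None of the 19 core genes is filled, the 5 filled receptors and ligands are left of 0, and 5 of the 8 inhibitors are filled right of 0. Of all genes tested, 1.94% were called higher and 3.89% lower. Genes in 2 lists are drawn in both.

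The gene whose levels followed ERRFI1 most closely over the 10 libraries was ETV4 (Pearson r = 0.994 of log2 CPM centred on each batch). KRT8, a keratin of simple epithelia (r = 0.991), VASH2, a tubulin carboxypeptidase (r = 0.989), TTC9 (r = 0.979) and the RNA-binding protein RBM47 (r = 0.978) came next among 12642 genes. All 5 were called higher in HHH cells, with log2 fold changes from 0.32 for VASH2 to 0.58 for ETV4. Among the other inhibitors r was 0.942 for SPRY4, 0.928 for IL17RD, 0.895 for SPRY2, 0.776 for SPRED1, 0.734 for SPRY1, 0.680 for SPRED2 and -0.141 for SPRED3. The 10 points share populations and batches, so any gene that differs between populations can score high, and these values are a description.

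Some markers of other cell types differed between the populations. All 7 pluripotency markers were expressed, and their summed level was 4349.5 to 5626 CPM in general and 4154.5 to 5478 CPM in HHH libraries, with NANOG higher and SOX2 lower. Of 6 neural markers, 5 were lower in HHH cells (LHX5, LIX1, OTX2, SOX1 and ZIC1) and PAX6 was not called. Their sum was 95.4 to 153 CPM in general and 35.5 to 48.4 CPM in HHH libraries, most of it OTX2, which embryonic stem cells also express. The sum of 4 fibroblast markers, nearly all COL1A1, was 19.8 to 29.5 CPM in general and 9.09 to 18.6 CPM in HHH libraries. The primitive streak and endoderm markers had no mean of 1 CPM or more in either population. Of 5 trophoblast and amnion markers KRT7 was lower, and of 3 neural crest markers FOXD3 was higher and SOX10 lower. EPCAM, used for the sort, was higher, and CD9 did not pass. Whether cells of other types were present, and what part they had in the changes of the 8 inhibitors, was not tested.

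**Figure D5:**
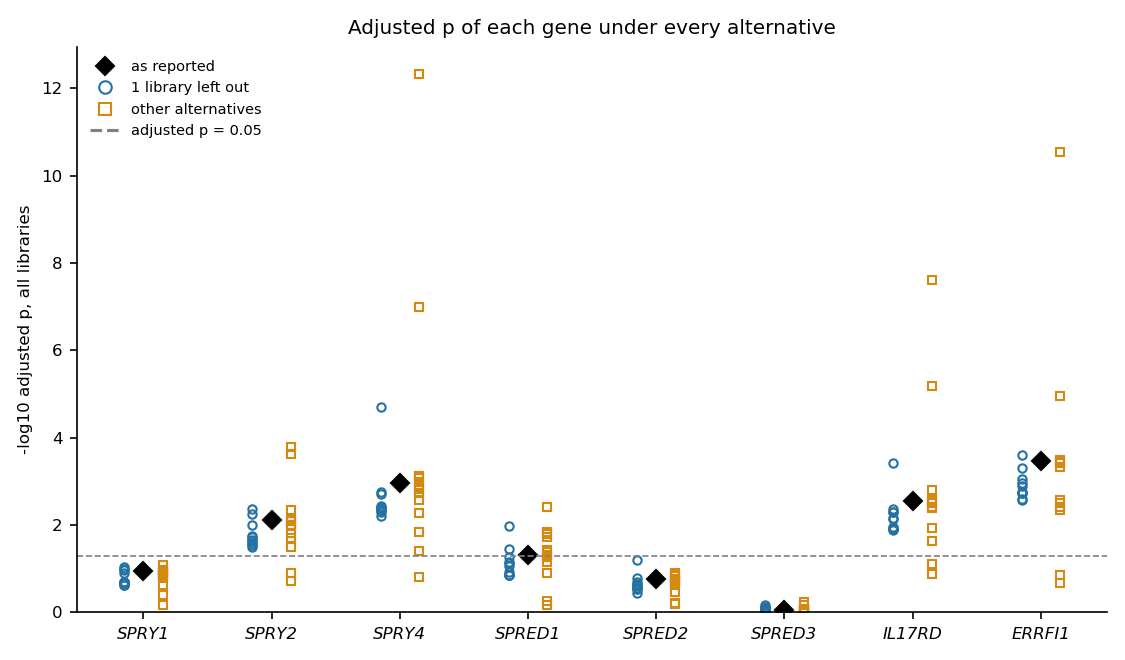
Adjusted p of each gene for HHH against general over all libraries, on a -log10 scale (y axis), as reported (diamonds), with 1 library left out (circles) and under the other alternatives (squares). SPRED1 lies on the dashed line at 0.05, while SPRY1, SPRED2 and SPRED3 stay below it throughout. The 2 highest squares for SPRY4 come from the fit with no filter on low counts and from DESeq2.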

How the data were processed

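Total RNA was extracted with Qiagen kits and made into TruSeq RNA libraries. Per the labels, the submitters' processing notes name CASAVA 1.8.2, R 3.2.2, limma 3.26.9 and the build GRCh37. The aligner, counting tool, annotation and strand setting are not given in the sources used here. The authors deposited raw read counts per Ensembl gene and a second table, treated here as a score because its scale rests on its description: log2 RPKM after TMM scaling, empty where the count is 0. In it the batch means of each gene are equal to within 9.2e-14 over 27641 genes, so a batch term had been subtracted. The GENCODE exons of the 8 genes, on GRCh38, share no base with those of another matched gene of the count table. For the annotation behind the counts this was not checked.

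Symbols were matched to 49395 of 55841 identifiers. Totals were 47242595 to 78503395 counts per library, so 3 counts equal 0.046 to 0.0687 CPM (counting error only). Counts were filtered with filterByExpr (minimum count 10), TMM-scaled and tested with edgeR 4.0.16 (R 4.3.3) by the quasi-likelihood F test, with batch and population as terms, or with a mean per group for values within batches and their difference. Adjusted p is Benjamini-Hochberg over all 23552 genes, called under 0.05. SE and 95% intervals come from the same fit. CPM are TMM-scaled. limma 3.58.1 and DESeq2 1.42.0 served as alternatives. The fit was tested on simulated data. Within a group, replicates differed by more than counting noise (chi-square over degrees of freedom 6.31 to 54.8), so each counted as 1 sample. Same-numbered general and HHH libraries deviated together in 4 of 4 pairs (r = 0.113 to 0.239), and the number was taken as pairing, from the data alone. Of these pairs 1 is in batch 1, where centring on groups of 2 fixes the size of r. There, general replicate 1 and HHH replicate 3 had the same r of 0.113, so batch 1 cannot tell the number from the other pairing. The reported fit has no term for it, and the fit with the replicate number as a block was an alternative.

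The 8 genes, the lists and the markers were chosen with earlier results of these data known. Named from each list were the 4 genes with the smallest adjusted p and 11 fixed ones, of which 1 is not reported here. SOCS3, EGR1, FOSL1 and the marker genes were named after their values were seen, to complete a count. The 5 genes most like ERRFI1 were ranked among genes at 5 CPM or more.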

Additional observations from a re-analysis of the deposited data

How the results depend on the processing

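The direction of SPRY1, SPRY2, SPRY4, SPRED1, SPRED2, IL17RD and ERRFI1 over all libraries held in all 23 alternatives run. SPRED1 lost its call in 14 of them, SPRY2, IL17RD and ERRFI1 in 2 each (no batch term, and limma on the deposited log2 values) and SPRY4 in 1 (no batch term). Without the batch term edgeR called 0 members (5 at an unadjusted p under 0.05) and 168 genes. With limma on the deposited values 1 member was called, and the calls split into 50 higher and 1227 lower (3.92% higher, against 33.4% in the reported fit of 458 and 915), while the median of all genes was -0.12. The part of depth in that median, and in the calls lost with the deposited values, was not tested. Centring the deposited values on each library's median, an alternative chosen after seeing the data, gave 898 genes. All genes called numbered 1373 as reported, 2423 without a filter (43.9% higher), 2413 with a GC trend removed and the replicate block (44.6% higher), and 1065 with library size only (23.3% higher); 14.3% were higher without the batch term. With the replicate block alone, 1636 genes and the same count of 5 members were called. That fit uses 4 pairs and leaves 2 batch 1 libraries without a partner. SPRED1 then had an edgeR adjusted p of 0.0164, and the block changed no call of a member. DESeq2 called 1983 genes and 5 members.

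Leaving out 1 library gave 808 to 2347 genes (2347 without HHH batch 1 replicate 3; 808, 831, 841 and 896 without HHH batch 2 replicate 2, HHH batch 2 replicate 1, general batch 2 replicate 3 and general batch 2 replicate 1), 4 to 5 members over all libraries, 0 to 4 in batch 1 and 1 to 5 in batch 2. The libraries of batch 1 alone gave 1 member and 136 of all genes, against 504 of all genes for batch 1 as reported. In batch 2, all genes called fell from 2231 to 785 without general replicate 3. Members without overlap in either batch numbered 2 with library size only, for which no share of all genes is given.

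On the deposited values, 4 members were below 0 in batch 1, as given with the scale above. In the other alternatives signs turned for the following values. SPRED3 over all libraries ranged from -0.181 to 0.0823 with 1 library left out (0.0173 without HHH batch 2 replicate 2), and SPRED1 in batch 1 from -0.0143 to 0.301. The difference between batches then ranged from -0.0711 to 0.175 for IL17RD, -0.0143 to 0.0552 for ERRFI1 and -0.281 to 0.0262 for SPRED2. It was -0.0746 (IL17RD) and -0.0959 (ERRFI1) with library size only, where the median of all genes was -0.12, -0.0161 and -0.100 with the GC trend removed, and -0.00265 for ERRFI1 with a filter of 1 CPM in 5 libraries. SPRED3 had no value under that filter. The cause of these shifts was not tested.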
